A study of Mus musculus with 6 samples.

Results

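The epidermal differentiation complex is a cluster of genes that are switched on as keratinocytes of the skin mature. Its members were taken as the genes with symbols beginning in Sprr, Lce or S100a followed by a digit, together with Flg, Flg2, Hrnr, Lor, Ivl, Rptn and Tchh. Of the 19938 genes tested, 52 were members: 19 Lce genes, 14 S100a genes, 13 Sprr genes and 6 others. The mouse gene table holds 61 genes of these names, and the other 9 were not analysed here as single genes. Sprr2a1, Sprr2a2, Sprr2a3 and Lce3d among them lie only on probe sets that the annotation shares between several genes. S100a7l2, Sprr2c-ps, Lce1m, Flg and S100a11-ps were not analysed here.

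Total RNA of cultured dermal cells from the skin of newborn C57BL/6 mice was read on 6 Affymetrix arrays with 1 colour each, all after 2 days of culture. The 3 arrays of the DMSO group hold cells that had the solvent, as their titles say. The 3 arrays of the FR group hold cells given 2 compounds, forskolin and RepSox, at 20 µM each. The first raises cyclic AMP through adenylyl cyclase, and the other blocks the TGF-β type I receptor kinase, so the effects of the 2 compounds cannot be told apart here. The sex and exact age of the animals, and whether a group's 3 samples came from separate cultures, are not given in the labels. So p-values here reflect no more than how far these samples spread, and that spread may be technical.

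Keratinocytes leaving the basal layer build a cornified envelope beneath the plasma membrane. Transglutaminases crosslink precursor proteins into it, first involucrin (Ivl) and later loricrin (Lor), the small proline-rich (Sprr) proteins and the late cornified envelope (Lce) proteins. Filaggrin-like proteins of the fused S100 type (Flg2, Hrnr, Rptn, Tchh) bind keratin filaments or enter the envelope. The S100a genes at the ends of the cluster encode small calcium-binding proteins, several of which are also made by fibroblasts and by myeloid cells.

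Levels are log2 RMA values, and a change is the mean of the 3 FR arrays less that of the 3 DMSO arrays. Median values per array ran from 5.983 to 6.002 with DMSO and from 6.015 to 6.074 with FR. Arrays correlated across genes with r of at least 0.9956 within DMSO and 0.9926 within FR, and between 0.9717 and 0.9776 across the groups. Precision is limited by there being 3 arrays a group, with a median standard error of 0.0962 per change. As a guide to background, the 1027 olfactory receptor genes had a 95th percentile of 5.65 in DMSO, called the olfactory receptor level below. A log2 change of a member under that level carries no fold here. The labels give a dermal origin, and fibroblast markers were read beside it. All 11 measured lay above that level in both groups, as did 11993 of all 19938 genes. Their mean over the list was 10.97 to 11.03 with DMSO and 10.67 to 10.73 with FR. The median level of all genes was 6.21 with DMSO and 6.26 with FR. These levels do not show from which tissue the fibroblasts came. Of 12 basal keratinocyte markers, 9 also lay above the olfactory receptor level in both groups.

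Of the 52 members, 24 rose with FR, 2 fell and 26 did not pass at adjusted p under 0.05 (limma, Benjamini-Hochberg over all 19938 genes), against a background of 13.4% of all genes higher and 14.5% lower (27.9% in either direction). The median change of the members was 0.30, against 0.05 over all genes tested. A rise of at least 1 on the log2 scale was found for 7 members, against 1.63% of all genes (3.13% in either direction). Of these 7, 3 had both means above the olfactory receptor level and 4 had DMSO means under it. The groups did not overlap for 31 members, against 43.9% of all genes. The Sprr genes had the highest share, with 9 of 13 higher, followed by 7 of 14 S100a genes and 7 of 19 Lce genes. Of the 6 fused-type and single envelope genes, 1 rose.

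Many members were dim. Both group means lay under the olfactory receptor level for 29 members, of which 11 rose and 0 fell. Among all 6932 genes that dim, 10.6% rose, and their median change was 0.11. The olfactory receptor genes themselves had a median change of 0.14, with 102 higher and 6 lower. Of the 15 members with both means above the level, 7 rose and 2 fell. Among all 11993 genes that bright, 1557 rose and 2637 fell, with a median change of -0.02. The scaling mattered for the weaker calls. With every array centred on its olfactory receptor median, a setting added after the data were seen, 15 members were higher and 3 lower, against 1106 and 4727 of all genes. That setting moved the median change of all genes from 0.05 to -0.10 and that of the members to 0.14. Centring on the array medians gave 23 members higher and 2 lower, with 1880 and 3447 of all genes, against 2671 and 2888 as deposited. Quantile normalization left 18 members higher and 2 lower, and cyclic loess 18 higher and 1 lower. Both ended the calls of Lce3a, Lce3f, Lor, S100a2, S100a5 and Sprr2g, with adjusted p from 0.0502 to 0.0927 under the former and from 0.0597 to 0.113 under the latter. A test against a log2 change of 0.5 left 7 members higher, and the same 7 kept their call in each of the 18 alternative settings that tested them: S100a14, Sprr1b, Sprr1a, S100a8, Sprr2h, Lce3c and S100a9.

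**Figure D1:**
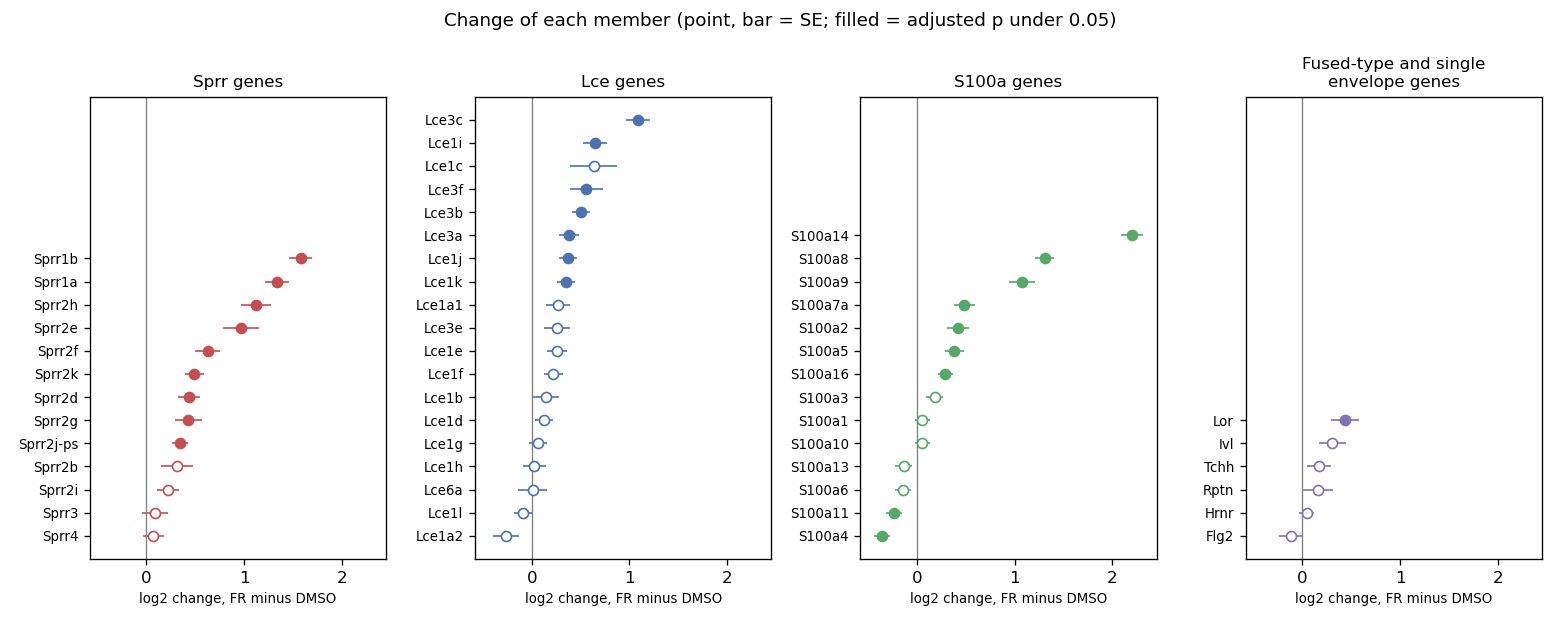
Log2 change (FR minus DMSO, x axis) of each of the 52 members by family, as points with bars of 1 standard error; filled points had an adjusted p under 0.05. The rises reach 2.20 for S100a14, 1.58 for Sprr1b and 1.09 for Lce3c, and filled points left of 0 are S100a4 and S100a11 alone.

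The Sprr genes encode small crosslinked bridging proteins of the envelope, and Sprr1a and Sprr1b are also known for rising in injured or stressed epithelium. Sprr1b stood at 6.07, 6.54 and 6.32 on the DMSO arrays and at 7.94, 7.84 and 7.89 on the FR arrays. Every FR array was above every DMSO array by more than 1 log2 unit, and the gene rose 2.98-fold (log2 change 1.58, SE 0.11, adjusted p = 2.92e-06 by limma). Sprr1a, its close relative, read 7.76, 7.95 and 7.77 in DMSO and 8.92, 9.16 and 9.41 in FR. The groups were again apart, with a log2 change of 1.33 or 2.52-fold (SE 0.12, limma adjusted p = 1.54e-05). Both genes lay above the olfactory receptor level on all 6 arrays.

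The Sprr2 genes form a tight row of closely related copies. Their probe sets can share signal, so single members are uncertain. Of 9 measured, 7 rose and 0 fell, with a median change of 0.44. Sprr2h went from 5.40, 4.92 and 4.86 to 5.94, 6.27 and 6.33, crossing the olfactory receptor level (log2 change 1.12, SE 0.15, adjusted p = 0.000243 by limma). Sprr2e read 3.56, 3.83 and 3.52 in DMSO and 4.15, 5.01 and 4.66 in FR, all under that level (log2 change 0.97, adjusted p = 0.00246). The FR arrays spread widely for this gene, with an SD of 0.43 against 0.17 in DMSO. Sprr2f changed by 0.63, Sprr2k by 0.49, Sprr2g by 0.43 and the pseudogene Sprr2j-ps by 0.35, all under the level in both groups, and Sprr2d by 0.44. Sprr2b and Sprr2i gave 0.31 and 0.22 and did not pass (adjusted p = 0.183 and 0.169). The call for Sprr2d was lost without DMSO replicate 1 (adjusted p = 0.0522) or 3 (0.0557) and without FR replicate 2 (0.0632) or 3 (0.069). That for Sprr2g was lost without DMSO replicate 1 (0.105) or 2 (0.139) and without FR replicate 2 (0.0509) or 3 (0.14).

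Sprr3 and Sprr4 did not pass. Sprr3, best known from the lining of the mouth and oesophagus, read 4.58, 4.99 and 4.47 in DMSO and 4.72, 4.65 and 4.91 in FR. The groups overlapped (log2 change 0.08, SE 0.13, adjusted p = 0.666). Sprr4 read 5.83, 5.74 and 5.71 in DMSO and 5.85, 5.61 and 6.04 in FR, also overlapping (log2 change 0.07, SE 0.11, adjusted p = 0.656). The sign of both turned under cyclic loess, to -0.03 and -0.02, and with olfactory receptor centring, to -0.07 and -0.08. In gene order Sprr3 lies between Sprr1b and Sprr1a, the Sprr genes with the widest changes.

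The sequence before the start of the Sprr genes is shown because most Sprr genes share motifs there. RefSeq's promoter table (GRCm38.p6) held 46 of the 52 members and not Lce1f, S100a10, S100a14, S100a2, Sprr2g and Sprr2j-ps. The 250 bases before the first listed start of each gene were searched on both strands for 6 motifs, none of which contains the letters of another. The AP-1 motif TGANTCA is read by Fos and Jun family dimers. It was present in 9 of 11 Sprr promoters, in 0 of 18 Lce promoters and in 1 of 11 S100a promoters, that of S100a11. It was also present in 4 of the 6 others, Lor, Ivl, Flg2 and Rptn, of which Lor rose. Of all 27025 promoters of this length, 6.87% held it. The TATA box letters TATAAA were present in 10 of 11 Sprr promoters, 3 of 18 Lce promoters and 2 of 11 S100a promoters, against 3504 of all 27025. Among the Lce matches, that of Lce1d begins at -30 before the start. Those of Lce6a (-218) and Lce3e (-243) lie far from it and on the other strand. The 9 Sprr promoters with the AP-1 letters comprise 7 of genes that rose and those of Sprr2b and Sprr2i, and the 2 without them are those of Sprr3 and Sprr4. Over all members, 8 of 20 promoters of genes that rose held the AP-1 letters. So did 1 of 2 promoters of genes that fell and 5 of 24 of genes that did not pass. Most members that rose thus lacked them in the window. A match describes these letters and is not a binding site, and the matches were set beside the changes without a test.

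Here are the 250 bases before the start of Sprr1b (chr3:92438780-92439029, minus strand), Sprr1a (chr3:92485882-92486131, minus strand) and Sprr3 (chr3:92458721-92458970, minus strand), 5′ to 3′ on the gene's strand. Capitals mark the AP-1 and TATA letters.
Sprr1b: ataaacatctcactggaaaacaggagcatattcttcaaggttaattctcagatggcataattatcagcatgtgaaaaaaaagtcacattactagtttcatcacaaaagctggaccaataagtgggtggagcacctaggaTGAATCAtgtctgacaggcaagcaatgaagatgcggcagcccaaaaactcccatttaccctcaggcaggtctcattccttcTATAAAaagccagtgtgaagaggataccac
Sprr1a: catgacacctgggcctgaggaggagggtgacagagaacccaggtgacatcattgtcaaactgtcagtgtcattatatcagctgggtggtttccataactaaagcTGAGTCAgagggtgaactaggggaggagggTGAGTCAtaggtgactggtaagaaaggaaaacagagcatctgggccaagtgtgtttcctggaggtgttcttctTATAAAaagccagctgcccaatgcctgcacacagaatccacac
Sprr3: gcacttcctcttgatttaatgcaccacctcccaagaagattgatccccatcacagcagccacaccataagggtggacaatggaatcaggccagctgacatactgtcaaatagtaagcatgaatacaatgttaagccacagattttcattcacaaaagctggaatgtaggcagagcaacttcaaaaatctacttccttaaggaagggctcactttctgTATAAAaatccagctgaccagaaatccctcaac

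The AP-1 letters begin at -111 in Sprr1b and at -146 and -116 in Sprr1a, counted back from -1 at the base before the start. In Sprr3 the capitals are the TATA letters alone. In all 7 Sprr2 promoters in the table the TATA letters begin at -29, and the AP-1 letters, each time as TGAGTCA, begin between -198 and -193. Sprr2k holds a second copy nearer the start. The following windows of 40 bases show how alike these copies are around the AP-1 letters, of which the first copy is in capitals. They lie at chr3:92316494-92316533 for Sprr2b, chr3:92338931-92338970 for Sprr2d, chr3:92351934-92351973 for Sprr2e, chr3:92364974-92365013 for Sprr2f, chr3:92385471-92385510 for Sprr2h, chr3:92407782-92407821 for Sprr2i and chr3:92432370-92432409 for Sprr2k, all on the plus strand.
Sprr2b: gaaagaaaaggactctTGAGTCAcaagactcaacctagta
Sprr2d: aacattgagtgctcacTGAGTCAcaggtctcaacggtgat
Sprr2e: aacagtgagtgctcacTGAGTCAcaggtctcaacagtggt
Sprr2f: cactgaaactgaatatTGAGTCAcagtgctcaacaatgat
Sprr2h: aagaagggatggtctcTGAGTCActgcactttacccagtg
Sprr2i: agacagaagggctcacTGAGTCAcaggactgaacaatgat
Sprr2k: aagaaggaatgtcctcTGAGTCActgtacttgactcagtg

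The cyclic AMP response element TGACGTCA was found in 0 of the 46 member promoters, against 1.62% of all. The SMAD palindrome GTCTAGAC was found in 0, against 0.174% of all. The GRHL motif AACCNGTT was found in 2 (S100a9 and Rptn) against 1.71%, and the KLF core CACCC in 23, against 51.3%. Both absences say only that these letters are not in these windows. S100a8 and Lce3c are among the members that rose without AP-1 letters in the window. Their 250 bases are printed for comparison (chr3:90668821-90669070, plus strand, and chr3:92944236-92944485, plus strand). Capitals in S100a8 mark its TATA letters.
S100a8: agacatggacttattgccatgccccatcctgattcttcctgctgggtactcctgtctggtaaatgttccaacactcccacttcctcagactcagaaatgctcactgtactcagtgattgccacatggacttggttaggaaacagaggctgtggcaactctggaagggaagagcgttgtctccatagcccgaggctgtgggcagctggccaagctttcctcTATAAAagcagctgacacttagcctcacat
Lce3c: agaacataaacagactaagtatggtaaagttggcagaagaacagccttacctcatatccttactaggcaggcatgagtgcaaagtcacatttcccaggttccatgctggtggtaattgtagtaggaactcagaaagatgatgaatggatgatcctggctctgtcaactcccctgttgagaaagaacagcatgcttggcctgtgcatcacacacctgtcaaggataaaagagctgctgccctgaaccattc

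S100a14, an S100 gene of epithelia, had the largest change among the 52 members. It read 6.04, 5.68 and 6.15 on the DMSO arrays and 8.17, 8.13 and 8.17 on the FR arrays. The FR arrays had an SD of 0.025 and lay far above every DMSO array, a log2 change of 2.20 or 4.59-fold (SE 0.12, limma adjusted p = 2.98e-07). Its neighbours in gene order differed: S100a13, whose protein takes part in unconventional secretion, gave -0.14 (adjusted p = 0.277), and S100a16 rose by 0.29. The call for S100a16 was lost without DMSO replicate 1 (adjusted p = 0.0601), 2 (0.054) or 3 (0.0765) and with arrays centred on their medians (0.0709).

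S100a8 and S100a9 encode the paired subunits of calprotectin, an antimicrobial protein of neutrophils that stressed keratinocytes also make. S100a8 read 4.97, 5.24 and 5.19 in DMSO and 6.52, 6.36 and 6.44 in FR (log2 change 1.30, SE 0.10, adjusted p = 3.15e-06 by limma). S100a9 read 5.42, 5.27 and 5.09 in DMSO and 6.05, 6.56 and 6.40 in FR (log2 change 1.08, SE 0.13, adjusted p = 0.000143). Both went from under the olfactory receptor level on every DMSO array to above it on every FR array. S100a7a, the mouse relative of human psoriasin, lies just before them in gene order and also rose (log2 change 0.48, 1.40-fold, adjusted p = 0.00593).

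Because S100a8 and S100a9 are also neutrophil and monocyte genes, a list of such markers was read beside them. Of 19 measured, 15 lay under the olfactory receptor level in both groups. Their average per array ran from 4.908 to 5.040 with DMSO and from 5.026 to 5.124 with FR. The pan-leukocyte gene Ptprc stood at 4.21 and 4.22 in the groups (log2 change 0.01, adjusted p = 0.966, turning to -0.05 under quantile normalization). The granule genes Elane (0.18, adjusted p = 0.175) and Mpo (0.19, adjusted p = 0.327) did not pass either. Of the list, 3 rose and 1 fell, against 13.4% of all genes higher and 14.5% lower. Camp, a cathelicidin gene that keratinocytes also use, rose 1.86-fold, Fcer1g changed by 0.32 and Prtn3 by 0.38 under the level, and the collagenase gene Mmp8 fell by 1.34. Fcer1g no longer passed without DMSO replicate 2 (adjusted p = 0.137) or 3 (0.0844) and without FR replicate 1 (0.051) or 3 (0.11). Prtn3 no longer passed without DMSO replicate 1 (0.0657) or 2 (0.0802) and without FR replicate 3 (0.0672).

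The S100a genes with the highest levels here fell or did not pass, and which cells made them was not measured. Among all 11993 genes with both means above the olfactory receptor level, 2637 fell and 1557 rose. S100a4, also known as fibroblast-specific protein, fell from 12.38, 12.37 and 12.41 to 12.08, 11.92 and 12.09. The groups did not overlap, and the gene was 1.28-fold lower (log2 change -0.36, SE 0.08, adjusted p = 0.00917 by limma). S100a11 went from 12.52, 12.54 and 12.57 to 12.25, 12.31 and 12.36 (log2 change -0.24, adjusted p = 0.0483), and its other probe set gave -0.23. It no longer passed without DMSO replicate 1 (adjusted p = 0.109), 2 (0.125) or 3 (0.14) and without FR replicate 1 (0.0934), 2 (0.0796) or 3 (0.0535). S100a6, the calcyclin gene, read 12.54, 12.55 and 12.60 in DMSO and 12.44, 12.30 and 12.51 in FR, and did not pass (log2 change -0.14, adjusted p = 0.238, but 0.0337 with a variance trend). S100a10, the p11 partner of annexin A2, read 10.89, 10.85 and 10.92 in DMSO and 10.97, 10.92 and 10.94 in FR (log2 change 0.05, SE 0.08, adjusted p = 0.631). The sign of S100a10 turned when arrays were centred on their medians (-0.0017) or olfactory receptors (-0.10).

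Among the remaining S100a genes, S100a2 (0.42) and S100a5 (0.38) rose under the olfactory receptor level, and S100a3 (0.18, adjusted p = 0.145) and S100a1 (0.05, adjusted p = 0.624, turning to -0.0014 with arrays centred on their medians) did not pass. S100a2 no longer passed without DMSO replicate 3 (adjusted p = 0.0734) or FR replicate 3 (0.0674), and that of S100a5 without DMSO replicate 3 (0.0625).

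**Figure D2:**
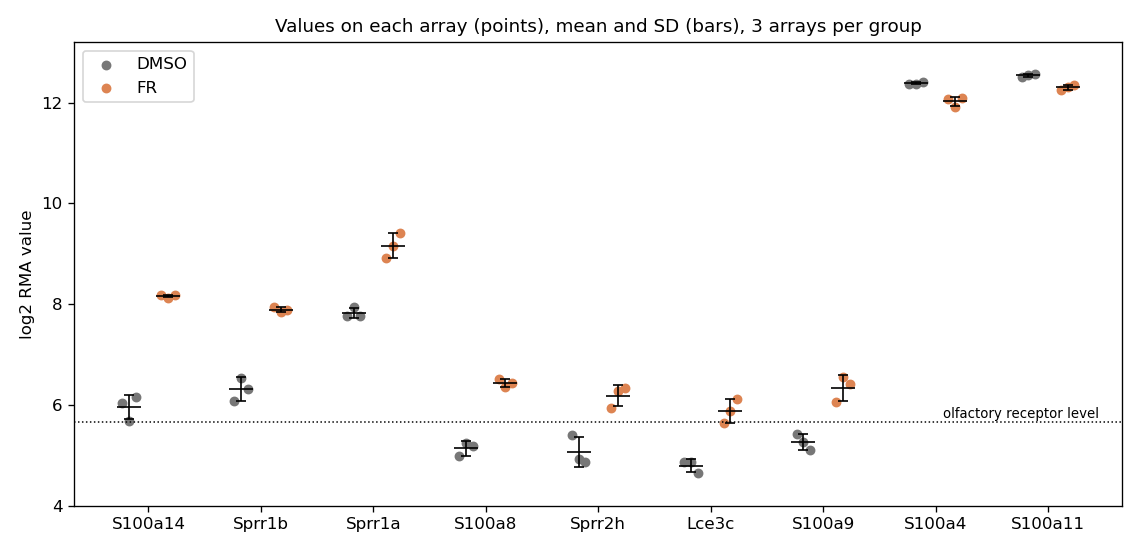
Log2 RMA value (y axis) of 9 members on each of the 3 DMSO and 3 FR arrays (points), with group mean and SD (bars); the dotted line is the olfactory receptor level of 5.65. The 7 genes on the left stand higher on all FR arrays, S100a4 and S100a11 stand lower, and S100a8, S100a9, Sprr2h and Lce3c begin under the line in DMSO.

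The Lce genes encode small proteins added late to the envelope, of which the Lce3 group is known for rising after barrier injury. Of 5 Lce3 genes, 4 rose and 0 fell, with a median change of 0.50, and of 13 Lce1 genes 3 rose and 0 fell, with a median of 0.22. Lce3c read 4.86, 4.87 and 4.65 in DMSO and 5.64, 5.87 and 6.12 in FR, with no overlap (log2 change 1.09, SE 0.12, adjusted p = 7.66e-05 by limma). Lce3b (0.50, adjusted p = 0.00219), Lce3f (0.56, adjusted p = 0.0287) and Lce3a (0.38, adjusted p = 0.021) also rose, Lce3b and Lce3f under the olfactory receptor level. The groups overlapped for Lce3f. It no longer passed without DMSO replicate 1 (adjusted p = 0.0852) or 3 (0.102) and without FR replicate 2 (0.0882) or 3 (0.117). Lce3a no longer passed without DMSO replicate 1 (0.0864) or 2 (0.0698) and without FR replicate 3 (0.0761). The Lce3 genes are related copies that may also share signal, though their likeness was not measured here.

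Lce1i, Lce1j and Lce1k, which follow each other in gene order, were the Lce1 genes that rose. Lce1i changed by 0.65 under the olfactory receptor level (adjusted p = 0.00232). Lce1j, which lay above it, read 7.52, 7.35 and 7.52 in DMSO and 7.77, 7.99 and 7.76 in FR (1.29-fold, adjusted p = 0.0148). Lce1k rose 1.27-fold (adjusted p = 0.0206). Lce1j no longer passed without DMSO replicate 2 (adjusted p = 0.067), and the Lce1k call without DMSO replicate 2 (0.0798) or 3 (0.0595) and without FR replicate 2 (0.0628). Lce1c had the largest change among members that did not pass. It read 5.08, 5.26 and 5.57 in DMSO and 5.25, 6.31 and 6.25 in FR, so FR replicate 1 stayed within the DMSO range (log2 change 0.63, SE 0.24, adjusted p = 0.0748). Without that array adjusted p was 0.000992. Lce1a2, in the same row, gave -0.26 (adjusted p = 0.17), and passed as lower without DMSO replicate 2 (0.0409).

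The fused-type and single envelope genes stayed dim. Lor, the main protein of the finished envelope, read 4.76, 4.16 and 4.55 in DMSO and 4.77, 4.98 and 5.02 in FR (log2 change 0.43, SE 0.14, adjusted p = 0.0418). The lowest FR array lay just above the highest DMSO array. It no longer passed without DMSO replicate 2 (adjusted p = 0.139) or 3 (0.0699) and without FR replicate 2 (0.114) or 3 (0.135). It was lost in 11 of the 17 alternative settings that tested it, among them quantile normalization (0.0927), cyclic loess (0.113), array weights (0.0792) and the replicate block (0.0614). Ivl, the early scaffold of the envelope, read 4.59, 4.73 and 4.93 in DMSO and 4.76, 5.23 and 5.19 in FR and did not pass (0.31, adjusted p = 0.112), but did without FR replicate 1 (0.0155). The fused-type genes gave changes of -0.12 for Flg2, 0.04 for Hrnr, 0.16 for Rptn and 0.17 for Tchh, the trichohyalin gene of hair follicles, with adjusted p from 0.337 to 0.703. Each had groups that overlapped. The sign of Hrnr turned under quantile normalization (-0.04) and cyclic loess (-0.06), and that of Rptn without FR replicate 2 (-0.06). The means of Lor, Ivl, Flg2, Rptn and Tchh lay under the olfactory receptor level in both groups. Hrnr stood close to it, at 5.61 in DMSO and 5.66 in FR.

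**Figure D3:**
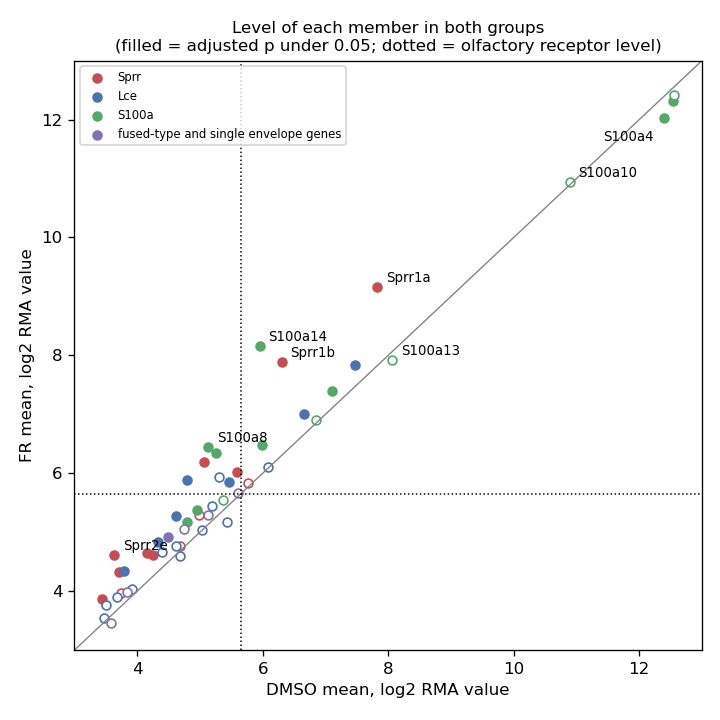
Mean log2 RMA value of each member in FR (y axis) against DMSO (x axis), coloured by family and filled where adjusted p was under 0.05; the diagonal marks no change and the dotted lines the olfactory receptor level of 5.65. Of the members, 29 lie under the level in both groups, and S100a14, Sprr1b and Sprr1a stand farthest above the diagonal to the right of it.

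Along the chromosome, members that rose lay beside members that did not pass. With 24 of 52 members higher, some lie next to each other in any order, and grouping by position was not tested. All members with a RefSeq promoter lie on chr3. The order of the 52 genes in the gene table runs from the S100a1 end through S100a7a, S100a8 and S100a9, Lor, the Sprr2 row, Sprr1b, Sprr3, Sprr1a, Sprr4, Ivl, the Lce1 and Lce3 rows and the fused-type genes to S100a11 and S100a10. S100a7a, S100a8, S100a9 and Lor were 4 consecutive members that rose. Lor is not close to the others, as the upstream windows of S100a9 and Lor begin at chr3:90695722 and chr3:92083143. In the Sprr2 row, Sprr2d, Sprr2e, Sprr2f, Sprr2g and Sprr2h also rose one after another, but the probe sets of these copies can share signal. Sprr4, Ivl, Lce6a, Lce1a1, Lce1b, Lce1a2, Lce1c, Lce1d, Lce1e, Lce1f, Lce1g and Lce1h, which lie between Sprr1a and Lce1i, did not pass. Of 9 neighbouring genes in the region that are no members, 2 rose and 0 fell (median 0.23), and 7 lay under the olfactory receptor level in both groups. Of all genes 13.4% rose. Of all genes under that level in both groups 10.6% rose, with a median change of 0.11. The neighbours that rose were Crnn, the cornulin gene (0.38), and Prr9 (0.29), both under the olfactory receptor level. Prr9 no longer passed without DMSO replicate 1 (adjusted p = 0.096) or 3 (0.15) and without FR replicate 2 (0.106) or 3 (0.104). Of 4 further genes with S100 in their names but outside the rule, S100g rose 1.29-fold and S100b 1.21-fold. Leaving out DMSO replicate 1, 2 or 3 or FR replicate 1 or 2 ended the call of S100b (adjusted p from 0.0858 to 0.126), and leaving out DMSO replicate 1 (0.0803) or FR replicate 2 (0.0568) that of S100g.

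**Figure D4:**
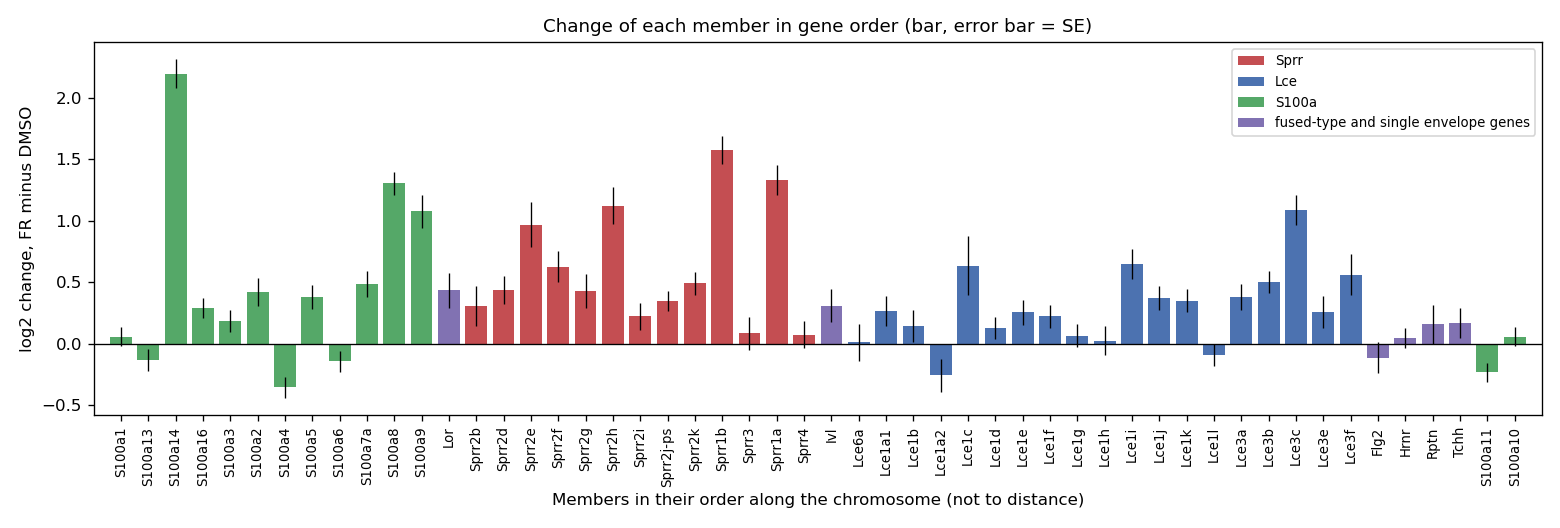
Log2 change (FR minus DMSO, y axis) of the 52 members in their order along the chromosome (x axis, not to distance), as bars with 1 standard error, coloured by family. The tallest bars are S100a14, Sprr1b, Sprr1a and S100a8, and Sprr3 stands at 0.08 between Sprr1b and Sprr1a.

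The machinery that builds and seals the envelope was read from a list of crosslinking, scaffold, protease and barrier lipid genes. Of 33 measured, 19 rose and 0 fell, with a median change of 0.37. Of all genes 13.4% rose, with a median change of 0.05. Krtdap, a secreted protein gene of differentiating keratinocytes, changed most (2.42, from 4.88 ± 0.22 to 7.30 ± 0.38, SD, n = 3, adjusted p = 2.52e-06 by limma). The secreted partner genes Sbsn and Dmkn rose 3.06-fold and 2.39-fold, and the cystatin-type inhibitor gene Stfa3 changed by 1.40 under the olfactory receptor level. Tgm1, the main envelope transglutaminase, rose 1.39-fold (adjusted p = 0.00761), and Ppl, the scaffold gene periplakin, by 0.65 on the log2 scale. These lists were chosen with earlier results of these data known.

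Keratinocyte genes moved beside the members, those of the basal list more often than those of the suprabasal list. Of 12 basal keratinocyte markers, 10 rose and 0 fell (median 0.56), against 13.4% of all genes higher and 14.5% lower. Krt5 changed most, from a mean of 8.29 in DMSO to 10.46 in FR (4.52-fold), and Krt14 was higher by 1.58 on the log2 scale. Trp63, the transcription factor gene of the basal layer, rose 2.30-fold and the integrin gene Itga6 1.83-fold. The average of the basal list per array ran from 6.169 to 6.205 with DMSO and from 6.881 to 7.042 with FR. Of 11 suprabasal keratins and cadherins, 6 rose and 0 fell (median 0.28), and their mean went from 5.466 to 5.582 in DMSO to 6.069 to 6.116 in FR. Those that rose most were the desmosome genes Perp (3.54-fold), Dsc3 (1.57) and Dsg3 (1.48). In which layer of cells these desmosome genes were made was not measured. Krt1 stood at 4.01 and 4.07 (log2 change 0.06, adjusted p = 0.676, turning to -0.02 under cyclic loess) and Krt2 gave -0.21 (adjusted p = 0.122; lower under quantile normalization, 0.0292, and cyclic loess, 0.016), while their partner Krt10 rose 1.19-fold (adjusted p = 0.0341). The Krt10 call was lost with median centring (0.122), without DMSO replicate 1 (0.0903), 2 (0.107) or 3 (0.0944) and without FR replicate 1 (0.058) or 2 (0.0748). Of 15 wound and barrier stress genes, 12 rose and 0 fell (median 1.12), and their mean went from 5.594 to 5.660 in DMSO to 6.898 to 6.906 in FR. Among them the growth factor gene Ereg rose 6.49-fold, and the iron-binding lipocalin gene Lcn2 changed by 2.36. What part these keratinocyte genes have in the members' rise was not tested. In bulk RNA of mixed cells, more cells of a type and more RNA per cell cannot be told apart.

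**Figure D5:**
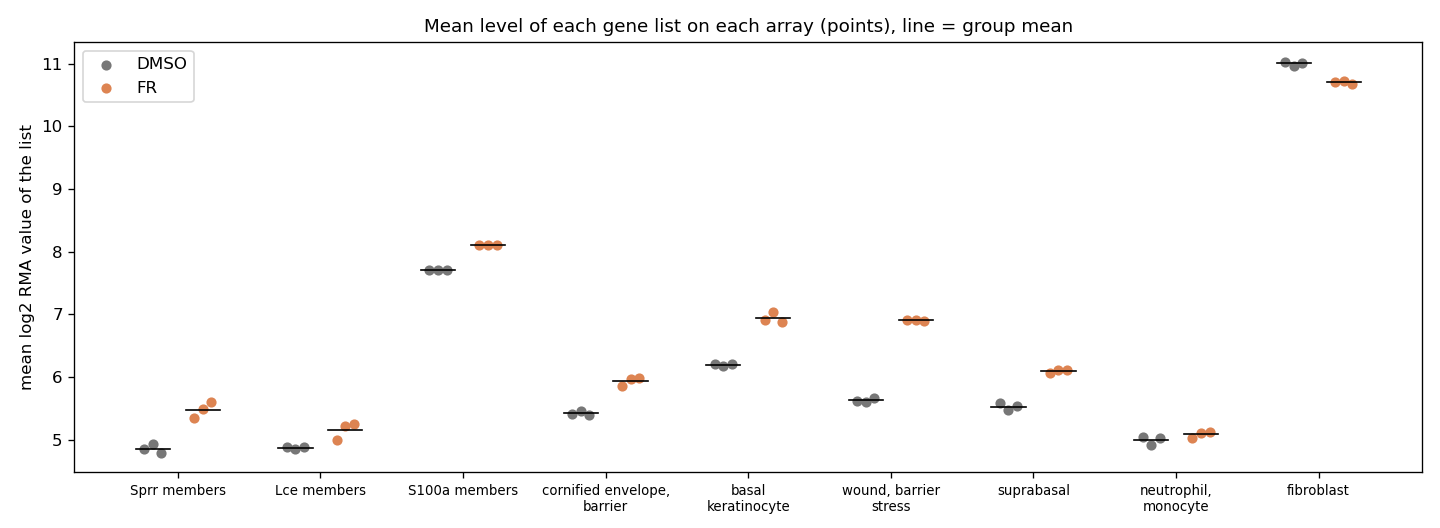
Mean log2 RMA value (y axis) over the genes of each list on each of the 3 DMSO and 3 FR arrays (points; line, group mean), for 3 member families and 6 related lists. All FR arrays stand above all DMSO arrays for these 3 member families and the keratinocyte lists. The neutrophil and monocyte list overlaps (4.908 to 5.040 against 5.026 to 5.124), and the fibroblast list is lower in FR. The fused-type and single envelope genes, not drawn, also overlapped (4.491 to 4.659 with DMSO against 4.598 to 4.866 with FR).

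Regulators of epidermal differentiation split. Of 29 measured, 11 rose and 2 fell, with a median change of 0.17, against 13.4% of all genes higher and 14.5% lower. Cebpa, a transcription factor gene of differentiating epidermis and of fat cells, rose 3.78-fold (adjusted p = 1.76e-07), and Ahr, the aryl hydrocarbon receptor gene, 2.34-fold. Tfap2a changed by 0.58. Fosl1, which encodes the AP-1 subunit Fra-1, read 7.04 ± 0.14 in DMSO and 8.79 ± 0.17 in FR (SD, n = 3), a 3.35-fold rise (adjusted p = 9.66e-07 by limma). The other AP-1 subunits on the list did not pass: Fos gave 0.17, Jun 0.19, Junb 0.10, Jund -0.13 and Fosl2 0.01. The sign of Junb turned with olfactory receptor centring (-0.06) and that of Fosl2 with centring on array medians (-0.05) or olfactory receptors (-0.15). The regulators that fell were Klf4, a factor needed for the skin barrier (-0.46, adjusted p = 0.00844), and the retinoic acid receptor gene Rarg (-0.30, adjusted p = 0.0191). Rarg no longer passed without DMSO replicate 2 (0.0645) or 3 (0.0763) and without FR replicate 3 (0.0528).

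Partners and receptors of S100 proteins fell more often than they rose, with 7 of 13 lower and 2 higher (median -0.31). Both means of 12 of them lay above the olfactory receptor level. Among all 11993 genes that bright, falls also outnumbered rises, with 2637 lower and 1557 higher. Anxa2, whose protein binds that of S100a10, was 1.51-fold lower (adjusted p = 0.000262), the giant scaffold gene Ahnak, whose protein binds that complex, 1.71-fold, and the calprotectin receptor gene Tlr4 changed by -0.68. Ager, the receptor for advanced glycation end products, did not pass (0.18, adjusted p = 0.169). The lipid receptor gene Cd36 changed by 2.28 from under the olfactory receptor level, and Emb rose 2.16-fold.

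Markers of other cells of skin were read in the same way. Of 11 fibroblast markers, 3 rose and 7 fell (median -0.66). The widest change of the list was a rise, that of the collagen-binding lumican gene Lum (4.51-fold, adjusted p = 1.18e-06 by limma), while Col1a2 was 2.97-fold and Fn1 2.20-fold lower. Of 13 inner root sheath and hair cortex markers, 10 lay under the olfactory receptor level in both groups, and only Foxn1 rose (0.36, lost without DMSO replicate 2, adjusted p = 0.0666). Of 9 melanocyte and Schwann cell markers 2 rose and 1 fell (median 0.18). Of 8 endothelial markers 3 rose and 0 fell (median 0.18), and 7 of the 8 lay under the level in both groups. Beside these counts, 13.4% of all genes rose and 14.5% fell. All genes under the level in both groups had a median change of 0.11.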

How the data were processed

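The deposited table holds log2 values for 35556 probe sets on 6 arrays. The authors made them by RMA in the oligo package, per the submitters' processing notes. Their versions and the build are not given in the sources used here. This method, in its usual form, corrects background, normalizes arrays by quantiles and summarises probes, which can compress changes near background and saturation. The values had 0 missing entries, and 0 of 15 pairs of arrays were identical.

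Gene names came from the annotation of the platform, in which 21789 probe sets had 1 symbol, 1621 several and 12146 none listed. The brightest single-symbol probe set over all 6 arrays stood for each gene, which gave 19938 genes. The test was that of limma 3.58.1 under R 4.3.3 (a linear model with moderated variance, group as the only term, two-sided) with Benjamini-Hochberg adjustment over all genes, and called at adjusted p under 0.05. On simulated data of 19938 genes, of which 200 were changed, the fit recovered 42% of changes of 0.5 and 88% of changes of 1 (log2). It made 2 false calls among 132. With 5559 genes called in the real data the adjustment is less strict, so these rates do not carry over to the test above.

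The members and 13 gene lists were chosen with earlier results of these data known. The rule for named genes took every called member, the fused-type and single envelope genes, 6 S100a genes, the 3 largest uncalled members, up to 4 called genes of each list and 8 set genes. Another 19 were named after their values were seen. Alternatives were other scalings, a filter on dim genes, other probe sets, other variance models, a test against a log2 change of 0.5, a block for replicate number and each array left out in turn. A list of protein features was planned and not run.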

Additional observations from a re-analysis of the deposited data

Results flagged for a closer look

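The 4 probe sets that the annotation shares between several members took no part in the tests above, and all 4 read higher on every FR array than on every DMSO array. The probe set shared by 4 Sprr genes read 7.75, 7.93 and 7.90 in DMSO and 10.06, 10.35 and 10.30 in FR. Its log2 change of 2.38 (SE 0.10, adjusted p = 4.42e-07 by limma over all probe sets with a listed gene) is above that of S100a14, the largest of any single-gene member. A pair of probe sets shared by 2 Sprr genes gave 1.66 each (adjusted p = 6.71e-05). Their values are identical on all 6 arrays, so they count as 1 measurement. The probe set shared by 6 Lce genes gave 0.322 (adjusted p = 0.0205). Which gene gives the signal of a shared probe set cannot be told apart.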

How the results depend on the processing

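Of the 26 called members, 7 kept call and direction under all of the 18 alternatives that tested them, and 10 when the test against a log2 change of 0.5 was set aside. The members higher numbered 24 as reported, 18 under quantile normalization, 18 under cyclic loess, 15 with arrays centred on the olfactory receptor median, 11 without dim genes (only 19 members were tested), 11 without moderation of the variance, 7 in the test against 0.5, and 17 to 28 with 1 array left out (28 without FR replicate 1). The members lower numbered 2, and 1 under cyclic loess, 1 with the replicate block, 0 in the test against 0.5 and 1 to 2 with 1 array left out. Genes changed over the whole table numbered 5559, 3364 without moderation, 842 in the test against 0.5 and 4033 to 5914 with 1 array left out. Deviations from the group means correlated at -0.0734, 0.0471 and -0.0344 between arrays of the same replicate number. Between arrays of different numbers the correlations ran from -0.0824 to 0.1222. The labels do not say whether a number marks a shared culture or batch, and these values cannot settle it. With the number as a block 24 members were higher, and the genes changed over the whole table numbered 4977. The olfactory receptor setting was chosen after seeing the data.

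Values that reversed sign were uncalled both as reported and in the alternative, and the cause was not tested. With olfactory receptor centring these were Fosl2 -0.149, Hrnr -0.112, Junb -0.0568, Krt1 -0.094, Ptprc -0.15, Rptn -4.2e-05, S100a1 -0.102, S100a10 -0.102, Sprr3 -0.073 and Sprr4 -0.0845. With median centring they were Fosl2 -0.0491, Hrnr -0.0117, Ptprc -0.0501, S100a1 -0.00143 and S100a10 -0.00173. Under quantile normalization Hrnr gave -0.0393 and Ptprc -0.052. Under cyclic loess Hrnr gave -0.0564, Krt1 -0.0239, Ptprc -0.0889, Sprr3 -0.034 and Sprr4 -0.0168. With 1 array left out, the ranges were -0.223 to 0.00342 for Flg2, -0.0272 to 0.064 for Fosl2, -0.0328 to 0.139 for Krt1, -0.052 to 0.0508 for Ptprc, -0.0608 to 0.28 for Rptn, -0.0224 to 0.239 for Sprr3 and -0.0327 to 0.184 for Sprr4. Signal near background limits the dim members, and 29 of the 52 lay under the olfactory receptor level in both groups. A planned comparison of protein features was not run.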
